A study of Zea mays with 8 samples.

Results

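RAMOSA1 (RA1) occupancy was mapped by chromatin immunoprecipitation and sequencing (ChIP-seq) in tassel and ear primordia of maize, and the regions described here held a peak in both tissues but with only 1 of the 2 tags in tassel. They were found by joining the peaks of all 4 deposited lists on chromosomes 1 to 10 wherever they overlapped by at least 1 bp, and by keeping regions with a peak of exactly 1 of the 2 tassel lists and of at least 1 ear list. Of 25032 merged regions, 518 met this rule. The presence of peaks chose the regions, so the numbers of regions, their heights and their distances are given as a description and without a test.

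The plants carried RA1 fused at its N-terminus to an HA-FLAG tag (labelled RA1-HA) or to the fluorescent protein YFP (labelled RA1-YFP), each in its native expression domain. Constructs were transformed into the HiII background and crossed to the ra1-R mutant, families segregated for transgene and mutation after backcrossing, and all samples are labelled ra1/ra1 B73. Pooled primordia of 1 to 5 mm were taken about 4 weeks (tassel) or 6 weeks (ear) after planting, and RA1-HA was precipitated with an HA antibody and RA1-YFP with a GFP antibody. The 8 samples are 4 ChIP libraries, 1 for each combination of tissue and tag, and 4 input DNA libraries, which enter through the authors' peak calling alone. There are no replicates, and transgene, antibody and library cannot be told apart within a tissue.

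RA1 is a zinc finger transcription factor of grasses such as maize and sorghum. It is expressed at the base of spikelet pair meristems, which form short branches, and makes these meristems determinate. In ramosa1 mutants they form long branches, in the tassel and in the ear. The regions here are those in which 1 of the tassel libraries did not give a called peak, which does not show that RA1 was absent from them.

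Most of the 518 regions had tassel YFP as their tassel tag. These YFP-tassel regions numbered 447 (86.3%, exact 95% interval 83 to 89.1), and the HA-tassel regions 71 (13.7%, 10.9 to 17). By ear list, 229 YFP-tassel regions held an ear HA peak only, 141 an ear YFP peak only, and 77 peaks of both ear lists. The HA-tassel regions held an ear HA peak only in 26 cases, an ear YFP peak only in 42, and both in 3. The most frequent combination therefore joined tassel YFP to ear HA, although these libraries differ in both tissue and tag. The tassel YFP list held 4797 peaks and the tassel HA list 2875, and the ear lists held 12840 peaks with YFP and 6641 with HA. The combination counts do not follow the lengths of the ear lists on the YFP-tassel side: 306 regions in all held an ear HA peak and 218 an ear YFP peak.

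Over all 7027 regions with a tassel peak, 10.7% held an ear peak, and over the 6406 tassel regions of 1 tag, 8.09% did. By tag the share was 10.7% of 4159 YFP-tassel regions (9.82 to 11.7) and 3.16% of 2247 HA-tassel regions (2.48 to 3.97). The rule used these same peaks, so nothing is read from the shares beyond their size. Of all merged regions, 2.99% held peaks of both tissues.

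To give a local background, all ear peaks were moved together by 50, 100, 200 or 500 kb in either direction, and the same rule was applied. The 8 shifts gave a mean of 62.2 regions, with a range of 50 to 75, so the observed 518 were 8.32 times that number. The multiple was 10.6 for YFP-tassel regions, with 447 regions against a mean of 42.1 (range 36 to 49). It was 3.53 for HA-tassel regions, with 71 against a mean of 20.1 (range 14 to 29). Both observed numbers lay above every shifted number. Within the YFP-tassel regions the multiple was 22.8 with both ear lists, 19.9 with ear HA only and 5.17 with ear YFP only. Within the HA-tassel regions it was 6.93 with ear HA only and 2.78 with ear YFP only, and the 3 regions with both ear lists were as many as the highest shifted count, which was also 3. A shift preserves how dense peaks are in a stretch of chromosome, but it moves ear peaks off any mappable or open sequence they share with tassel, and the part of these multiples that such sequence accounts for was not tested.

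**Figure D1:**
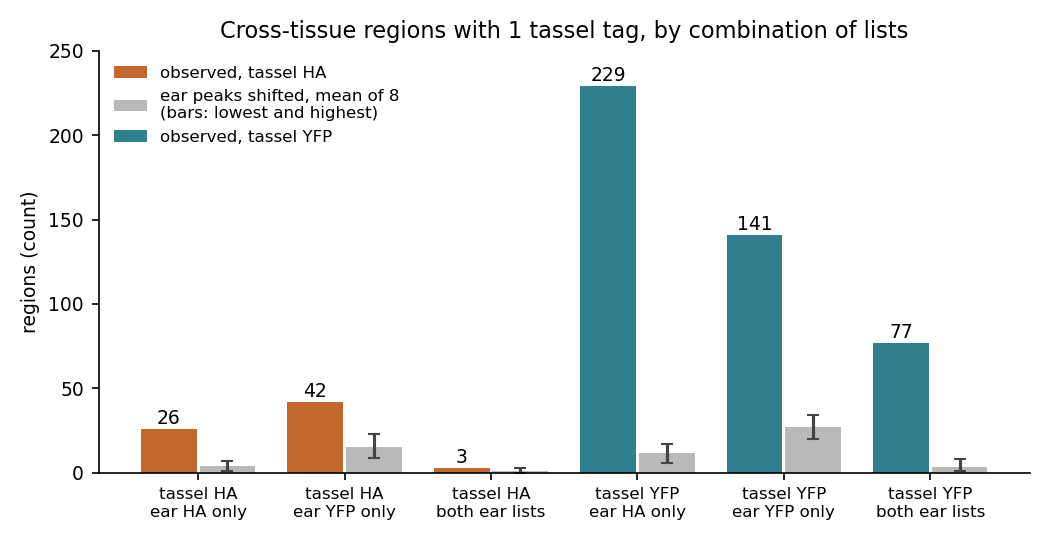
Number of cross-tissue regions with 1 tassel tag for each combination of lists (coloured bars) and the mean number after the ear peaks were shifted by 8 fixed distances (grey bars; error bars run from the lowest to the highest shift). The tallest bar is tassel YFP with ear HA only, 229 regions against a shifted mean of 11.5, and the smallest is tassel HA with both ear lists, 3 regions against 1.25.

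The distance between the tassel summit and the nearest ear summit, where a summit is the position of the highest fragment pileup in a peak, separated the combinations. In YFP-tassel regions with both ear lists the median distance was 8 bp (exact interval of the median 5 to 20), and with ear HA only it was 21 bp (16 to 40). With ear YFP only it was 203 bp (181 to 270). HA-tassel regions had median distances of 263 bp with ear HA only (77 to 367) and 324 bp with ear YFP only (243 to 496). In the regions that the shifts produced, where the tissues meet by placement alone, the median was 258 bp for tassel YFP (337 regions over 8 shifts) and 271 bp for tassel HA (161 regions). By ear list the shifted medians for tassel YFP were 214 bp with both, 218 bp with ear HA only and 304 bp with ear YFP only. For tassel HA they were 270 bp with ear HA only and 274 bp with ear YFP only. The YFP-tassel regions with an ear HA peak thus had summits far closer than shifted regions. With ear YFP only, the YFP-tassel median of 203 bp (quartiles 92 and 417) was also below the matched 304 bp (quartiles 158 and 465). No interval was computed for the shifted median, and the 2 spreads overlapped widely. The medians of the HA-tassel regions lay near the shifted ones. For comparison, tassel regions with both tags had medians of 2 bp in the 140 regions of all 4 lists, 6 bp in the 75 with ear HA only, and 57.5 bp in the 16 with ear YFP only.

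Summits lay within 50 bp of each other in 233 of the 518 regions (45%, interval 40.6 to 49.4), against 57.5% of all 749 regions that held peaks of both tissues. By tag this was 227 of 447 YFP-tassel regions (50.8%, 46 to 55.5) and 6 of 71 HA-tassel regions (8.45%, 3.16 to 17.5). The shifts gave a mean of 2.75 and 2.12 such regions. Among the shifted regions, 6.53% with tassel YFP and 10.6% with tassel HA had summits within 50 bp. The HA-tassel share of 8.45% was thus not above its shifted share. By number, the 227 close pairs were 82.5 times their shifted mean. The 6 were 2.82 times theirs, against 3.53 times for all HA-tassel regions, with a highest shifted count of 5. The multiple differed between the ear lists within each tag. In YFP-tassel regions it was 140 with ear HA only (140 close pairs against a mean of 1), and 20.4 with ear YFP only (28 against 1.38). In HA-tassel regions 5 close pairs with ear HA only were 13.3 times the mean of 0.375, above the highest shifted count of 1. With so small a mean this multiple is imprecise, and the 5 include the region on chromosome 6 at 20612142 to 20612878, described below. With ear YFP only, 1 close pair stood against a mean of 1.5. Pairs more than 50 bp apart were also more frequent than under shifts: 220 YFP-tassel regions against a mean of 39.4 (33 to 44), and 65 HA-tassel regions against 18 (13 to 25). The tags also differed in tassel height: 65 of the 71 HA-tassel regions had 2 to 4 fragments, against 139 of the 447 YFP-tassel regions. At that height, tassel and ear HA summits lay within 50 bp in 15.4% of 26 HA-tassel and 25% of 56 YFP-tassel regions. To ear YFP the shares were 2.38% of 42 and 12.8% of 94. How far height accounts for the difference between the tags was not tested.

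**Figure D2:**
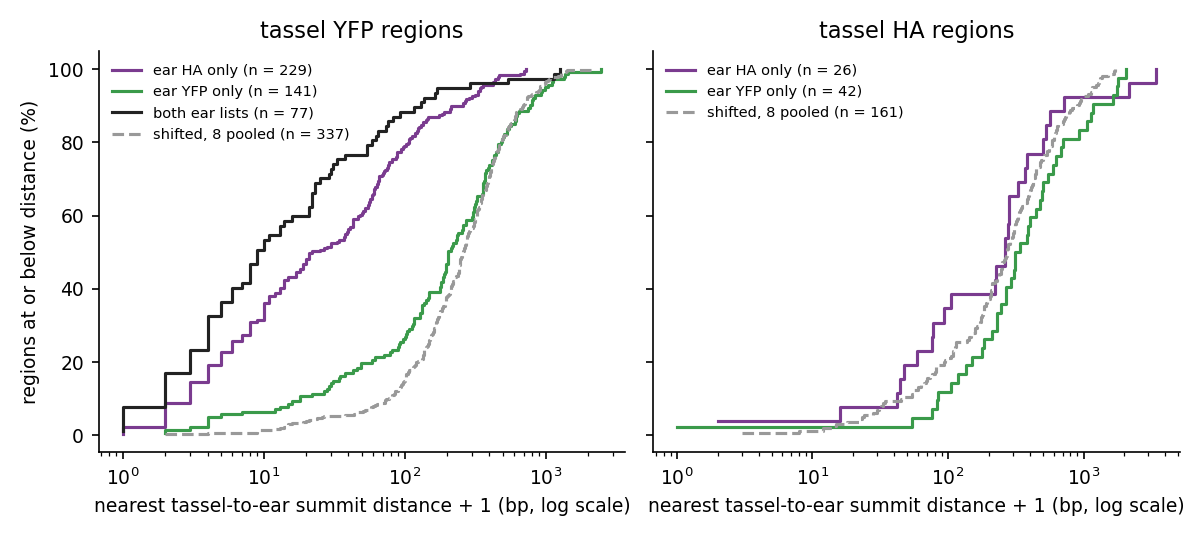
Cumulative share of regions (y axis, percent) at or below a given distance between the nearest tassel and ear summits (x axis, bp plus 1, log scale), for YFP-tassel regions (left) and HA-tassel regions (right) by ear list, with the regions given by 8 shifts of the ear peaks as a dashed line. The curves for tassel YFP with both ear lists and with ear HA only lie far to the left of the dashed line, with medians of 8 and 21 bp against 258 bp. Those for tassel HA stay near it, and the 3 HA-tassel regions with both ear lists are not drawn.

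In the 77 YFP-tassel regions with both ear lists the summits of the 3 libraries mostly lay close. The median distance was 13 bp from tassel YFP to ear HA (quartiles 4 and 62), 18 bp from tassel YFP to ear YFP (5 and 74), and 14 bp between the ear lists (3 and 56). The summits were within 50 bp in 52, 50 and 56 of the 77 regions in the same order, and the largest distance from the tassel summit to the nearest ear summit was 1257 bp. Between the ear lists, the 501 regions of both ear tags without any tassel peak had a median of 213 bp (80 and 509). The regions of all 4 lists had a median of 4 bp (1 and 13) for the same pair. No test was made of these differences, since the groups are defined by the peaks themselves.

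Regions were small in fragments. The median tassel summit height, in whole fragments not scaled to depth, was 7 in YFP-tassel regions (quartiles 4 and 11, range 2 to 36) and 4 in HA-tassel regions (2 and 4, range 2 to 23). Over the whole lists the median was 4 with either tag. The ear summits had medians of 8 fragments in ear HA (335 regions, quartiles 6 and 11) and 10 in ear YFP (263 regions, 8 and 12), against 6 and 8 in the whole lists. In YFP-tassel regions the tassel height differed with the ear list found. Its median was 10 with both ear lists (interval 8 to 13), 8 with ear HA only (7 to 9) and 4 with ear YFP only (4 to 4). HA-tassel regions had a median tassel height of 4 in each of their combinations.

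Tassel regions of both tags were higher, though the rule itself sets the groups apart by the presence of a second peak. Tassel YFP summits had a median of 23 fragments in regions of all 4 lists, where tassel HA had 7. With ear HA only the two-tag medians were 16 in tassel YFP and 5 in tassel HA, against 8 in the one-tag YFP regions. With ear YFP only they were 12 and 5.5, against 4 in the one-tag YFP regions. One-tag tassel regions with no ear peak, by contrast, had a median height of 4 with either tag (3712 YFP and 2176 HA regions). The YFP-tassel regions with an ear HA peak thus had medians between those of the one-tag regions without an ear peak and the two-tag regions with one. The YFP-tassel regions with ear YFP only, and the HA-tassel regions, had the same median as the one-tag regions without an ear peak.

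The share of one-tag regions that held an ear peak rose with tassel YFP height but not detectably with tassel HA height. For tassel YFP it was 5.01% at 2 to 4 fragments (139 of 2776 regions, interval 4.23 to 5.89), 15.2% at 5 to 9 (169 of 1110, 13.2 to 17.5), 47.5% at 10 to 19 (116 of 244, 41.1 to 54) and 79.3% at 20 to 39 (23 of 29, 60.3 to 92). Shifted ear peaks were met by 0.862% to 1.13% of regions in these classes. For tassel HA it was 3.19% at 2 to 4 fragments (65 of 2036, 2.47 to 4.05) and 2.46% at 5 to 9 (5 of 203, 0.804 to 5.65). At 10 to 19 fragments an ear peak was found in 0 of 7 HA-tassel regions, a count compatible with any share up to 42.9%, and at 20 to 39 fragments in the 1 region of that height. One-tag HA regions above 9 fragments were few, so the upper classes cannot be compared between the tags, and heights are not on a common scale of depth.

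The same rise was steeper for ear HA than for ear YFP. In YFP-tassel regions the share with an ear HA peak went from 2.02% at 2 to 4 fragments to 11.4% at 5 to 9, 41.4% at 10 to 19 and 79.3% at 20 to 39. The share with an ear YFP peak went from 3.39% to 6.13%, 16% and 58.6%. All 17 regions at 20 to 39 fragments with an ear YFP peak also had an ear HA peak. Summits drew closer with height as well. From tassel YFP to ear HA the median distance was 106 bp at 2 to 4 fragments (56 regions), 26.5 bp at 5 to 9 (126), 9 bp at 10 to 19 (101) and 7 bp at 20 to 39 (23). From tassel YFP to ear YFP it was 263, 108, 10 and 13 bp (94, 68, 39 and 17 regions). From tassel HA at 2 to 4 fragments it was 263 bp to ear HA (26 regions) and 324 bp to ear YFP (42). At 5 to 9 fragments it was 417 bp (2 regions) and 403 bp (3).

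**Figure D3:**
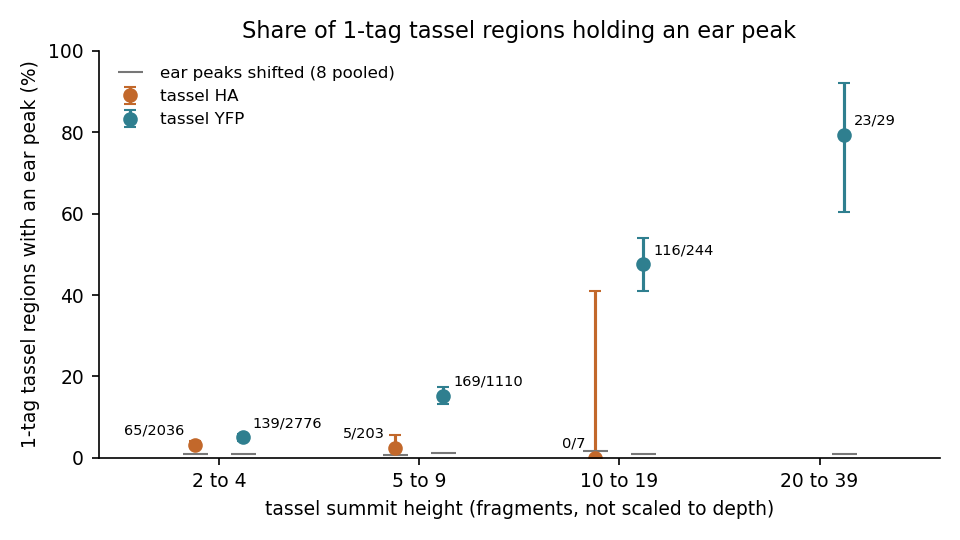
Percent of one-tag tassel regions that held an ear peak (y axis) by tassel summit height in fragments (x axis), for tassel HA and tassel YFP, with exact 95% intervals, the counts beside each point, and grey marks for the share that met shifted ear peaks. The tassel YFP points climb from 5.01% to 79.3%, while the tassel HA points at 2 to 4 and 5 to 9 fragments stay at 3.19% and 2.46%; the single HA region at 20 to 39 fragments is not drawn.

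Heights in the tissues moved together in the YFP-tassel regions with an ear HA peak. Over these 306 regions Spearman's rho between tassel YFP and ear HA height was 0.46 (Pearson's r = 0.611), and it was 0.841 over the 140 regions of all 4 lists. Over the 218 regions with an ear YFP peak rho was 0.146. These are descriptions across regions of the same libraries. Tassel YFP was higher than ear HA in 136 of the 306 regions, lower in 151 and equal in 19. In regions of all 4 lists it was higher in 115 of 140. In HA-tassel regions the tassel summit was never the higher one: it was lower than ear HA in 28 of 29 regions and equal in 1, and lower than ear YFP in all 45. Tassel HA was mostly the lower one in regions of all 4 lists as well, in 123 of 140 against ear HA and in 127 of 140 against ear YFP.

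By score, read here as the authors' p-value on a scale of minus 10 times its log10, 278 of the 447 tassel YFP peaks reached 100 (62.2%, interval 57.5 to 66.7) against 35.6% of the whole list. For tassel HA it was 10 of 71 (14.1%, 6.97 to 24.4) against 18.5%. The ear HA peaks reached 100 in 66 of 335 regions (19.7%, 15.6 to 24.4) against 4.07%, and the ear YFP peaks in 24 of 263 (9.13%, 5.93 to 13.3) against 3.6%. At the other end, scores of 50 to 55, just above the authors' limit, were held by 3.8% of the tassel YFP and 15.2% of the ear HA peaks, against 8.51% and 36.7% of those lists. In tassel HA 16.9% of peaks lay in this range against 11.9% of the list. Where a score of at least 100 was required in every list, 112 regions met the rule, all of them with tassel YFP, and 65 of these were among the 518. The other 47 met the rule because the second tassel peak they hold fell below that score.

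The share of ear HA peaks that lay in these regions varied with their score. Among ear HA peaks with scores from 50 to below 60, 2.5% lay in a cross-tissue region with 1 tassel tag (97 of 3873). The share was 5.92% from 60 to 80 (125 of 2111), 12.1% from 80 to 100, and 28.8% from 100 to 150 (53 of 184, interval 22.4 to 35.9). It was 24.2% from 150 to 200 (8 of 33, 11.1 to 42.3) and 9.43% at 200 or more (5 of 53, 3.13 to 20.7), where 48 of the 53 peaks lay in regions of both tassel tags. Of the 53 ear HA peaks from 100 to 150, 49 had tassel YFP as their tassel tag. In ear YFP the share stayed low, from 1.41% at 50 to 60 (93 of 6603) to 5.69% at 100 to 150 (23 of 404). Of those 404 ear YFP peaks, 351 had no tassel peak at all. Above that, the share was 0 of 28 from 150 to 200 (interval 0 to 12.3) and 1 of 30 at 200 or more. Regions of both tassel tags held 14 of these 28 and 28 of these 30 peaks.

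**Figure D4:**
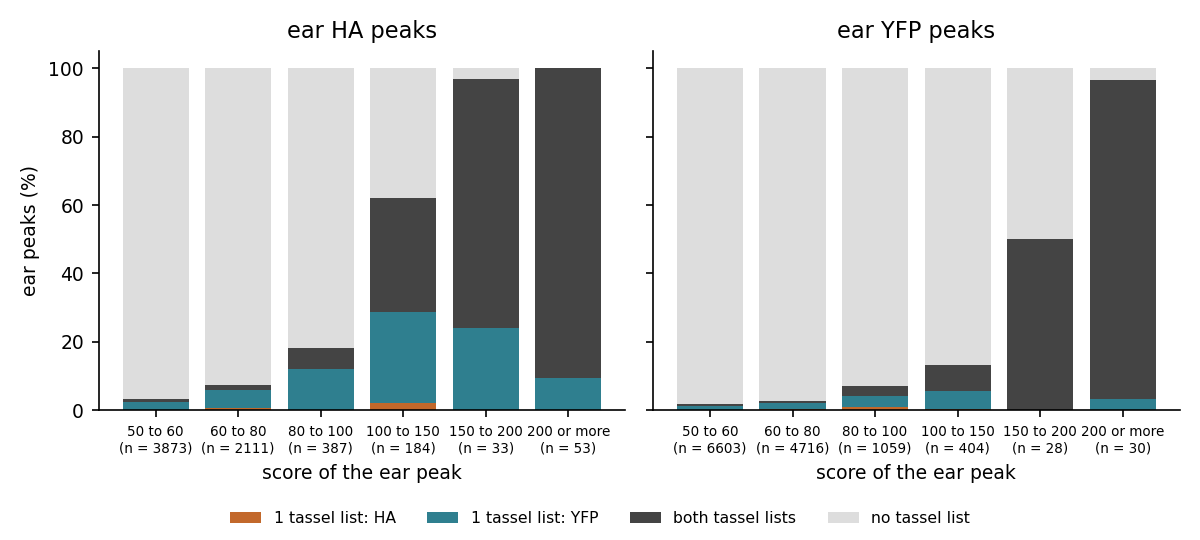
Percent of ear HA peaks (left) and ear YFP peaks (right) by the tassel lists found in the same region, for classes of the score of the ear peak (x axis; each class runs up to, but not including, its upper limit, with the number of peaks under it). One-tag tassel YFP regions make up 26.6% of ear HA peaks with scores of 100 to 150 and 5.2% of ear YFP peaks in that class; at 200 or more, regions of both tassel tags make up 90.6% and 93.3%.

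Widths differed between the ear lists. Tassel peaks had median widths of 286 bp in YFP-tassel regions (interval 283 to 290) and 385 bp in HA-tassel regions (329 to 430), against 284 and 345 bp in the whole lists. In YFP-tassel regions the ear HA peak had a median of 452 bp where it was the sole ear peak, against 518 bp for its whole list. The ear YFP peak had 972 bp where it was the sole ear peak and 487 bp where ear HA was also present, against 649 bp for its whole list. In HA-tassel regions the ear peaks were wide, with medians of 708 bp in ear HA only and 1000 bp in ear YFP only. An overlap of 1 bp was enough to join peaks of any width. The combinations with the wide ear peaks were also those with the larger summit distances. Whether the width of the ear peaks accounts for these distances was not tested.

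The whole tassel peak lay inside the ear peak in 320 of the 518 regions (61.8%, interval 57.4 to 66). This was 75.3% of YFP-tassel regions with both ear lists, 59.4% with ear HA only and 67.4% with ear YFP only, and 34.6% and 52.4% of HA-tassel regions with ear HA only and ear YFP only. At the margin of the rule, 15 regions overlapped by under 50 bp, with tassel heights of 2 to 6 fragments. Just outside it, 13 one-tag tassel regions had an ear peak within 50 bp but no overlap, with heights of 2 to 5. In 6 of the 518 regions a list contributed more than 1 peak.

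The tag missing in tassel was seldom found close by. Of the 447 YFP-tassel regions, 5 had a tassel HA peak within 1 kb (1.12%) and 21 within 10 kb (4.7%). Among one-tag YFP regions with no ear peak these shares were 1.37% and 6.06%. Of the 71 HA-tassel regions, 1 had a tassel YFP peak within 1 kb (1.41%) and 5 within 10 kb (7.04%), against 2.07% and 8.59% of one-tag HA regions with no ear peak. The rule already leaves out regions where peaks of the 2 tassel lists overlap. These shares lay near those of one-tag regions with no ear peak, so they are not particular to the regions described here. Of the 518 regions, 10 lay within 10 kb of another, and 1 lay within 10 kb of a region of all 4 lists. The same counts were not made for other sets of regions.

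The regions named here are those with the best worst-list rank of score in each combination, with the highest tassel summits and with the widest extent. Coordinates are in AGPv2, the maize B73 build named in the files. Nearby genes were not analysed here. The best-ranked region of tassel YFP with both ear lists lies on chromosome 4 at 3614024 to 3614481. Tassel YFP reached 25 fragments at its summit, ear HA 14 and ear YFP 12, with the nearest tassel and ear summits 62 bp apart. The next, on chromosome 4 at 70899628 to 70900229, had 32, 15 and 11 fragments in the same order, and its tassel YFP score of 914 was the highest among the 518 regions. The third, on chromosome 3 at 134607723 to 134608517, had 27, 29 and 26 fragments with a tassel and an ear summit at the same base, and scores of 413 in ear HA and 280 in ear YFP. In these 3 regions the nearest tassel HA peak was 80364 bp or more away. The highest tassel YFP summit of all, 36 fragments, lies on chromosome 1 at 253281253 to 253281845, where ear HA reached 18 and ear YFP 19 fragments and the summits were 7 bp apart.

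Among YFP-tassel regions with ear HA only, the best-ranked lies on chromosome 6 at 28071965 to 28072416, with 28 fragments in tassel YFP, 18 in ear HA and summits 3 bp apart. The next lie on chromosome 5 at 154325719 to 154326347 (11 and 8 fragments, 210 bp apart) and on chromosome 7 at 17251117 to 17251684 (11 and 7 fragments, 20 bp apart). Among those with ear YFP only, the best-ranked lies on chromosome 5 at 180279158 to 180280505, with 14 fragments in tassel YFP and 11 in ear YFP, 461 bp apart. Both that follow had close summits in narrow peaks: on chromosome 8 at 160824134 to 160824421 (12 and 10 fragments, 1 bp apart) and at 25027338 to 25027621 (11 and 10 fragments, 3 bp apart). Tassel heights in these 6 regions ran from 11 to 28 fragments, at or above the upper quartile of 11 for the YFP-tassel regions.

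One HA-tassel region stood apart from the other 70. On chromosome 6 at 20612142 to 20612878, tassel HA reached 23 fragments and ear HA 60, with summits 1 bp apart, while no other HA-tassel region exceeded 6 fragments in tassel HA or 14 in ear HA. Its scores were low for such heights, 95.9 in tassel HA and 113 in ear HA. A tassel YFP peak of 6 fragments lies 267 bp away, at 20611583 to 20611874, and ear YFP had no peak there. With this region Pearson's r between tassel HA and ear HA height was 0.937 over 29 regions, and without it 0.0805 over 28, so the correlation rests on this region alone.

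The other best-ranked HA-tassel regions were low. With ear HA only they lie on chromosome 3 at 16647794 to 16648581 (4 fragments in tassel HA and 11 in ear HA, 225 bp apart) and on chromosome 10 at 1819824 to 1820640 (4 and 8 fragments, 326 bp apart). With ear YFP only they lie on chromosome 3 at 227868782 to 227869782 (4 and 8 fragments, 448 bp apart), on chromosome 7 at 155023712 to 155025052 (4 and 13, 313 bp apart) and on chromosome 4 at 215398008 to 215399541 (4 and 9, 926 bp apart). The 3 regions with both ear lists lie on chromosome 5 at 64329668 to 64331952, and on chromosome 10 at 4610016 to 4610637 and at 92079890 to 92080989. They had 3 or 4 fragments in tassel HA, 7 to 9 in ear HA and 6 to 17 in ear YFP, and summits 294, 242 and 712 bp apart. The second-highest tassel HA summit, 6 fragments, lies on chromosome 9 at 86057077 to 86057903, 403 bp from an ear YFP summit of 11. Apart from the region on chromosome 6, none of these HA-tassel regions had summits within 200 bp.

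The widest regions were single wide ear peaks over a low tassel peak. For tassel YFP they lie on chromosome 7 at 15066164 to 15070599, where a tassel peak of 2 fragments lay 2490 bp from an ear YFP summit of 8, and on chromosome 1 at 276986288 to 276990119 (5 and 9 fragments, 185 bp apart). For tassel HA they lie on chromosome 6 at 104670748 to 104674728, where a tassel peak of 2 fragments lay 2050 bp from an ear YFP summit of 14, and on chromosome 1 at 247065062 to 247068929, where 4 fragments lay 3410 bp from an ear HA summit of 14. In 3 of the 4 the tassel and ear summits lay 2050 bp or more apart.

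Along the chromosomes the regions lay toward the ends. The outer 40% of the chromosome span, which ends here at the last peak of any list, held 255 of the 518 (49.2%, interval 44.8 to 53.6), against 42.8% of all merged regions. The share was 52.1% for HA-tassel regions (39.9 to 64.1) and 48.8% for YFP-tassel regions (44 to 53.5). It was 50.2% where summits lay within 50 bp and 48.4% where they did not. One-tag tassel regions without an ear peak had 47.4% there (46.1 to 48.7), two-tag tassel regions with an ear peak 49.8% (43.2 to 56.4), and regions with no tassel peak 40.8% (40.1 to 41.6). The interval of the cross-tissue regions overlapped those of both other kinds of tassel region. At scores of 100 or more, 112 regions met the rule, 65 of them among the 518. The outer share of these 112 was 42% (32.7 to 51.7), an interval that holds both 49.2% and 42.8%. The middle 20% of the span held 16% of the 518 (13 to 19.5) against 19.2% of all regions. Per chromosome, the number ran from 0.786 times that given by the span on chromosome 9 (31 regions) to 1.2 times on chromosome 5 (66 regions), and was 74 on chromosome 1, the longest. Chromosome 9 held 5.98% of the 518 (4.1 to 8.39) against 7.6% of all merged regions. Chromosome 5 held 12.7% (9.99 to 15.9) against 10.6%, so both intervals hold the share of all regions.

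**Figure D5:**
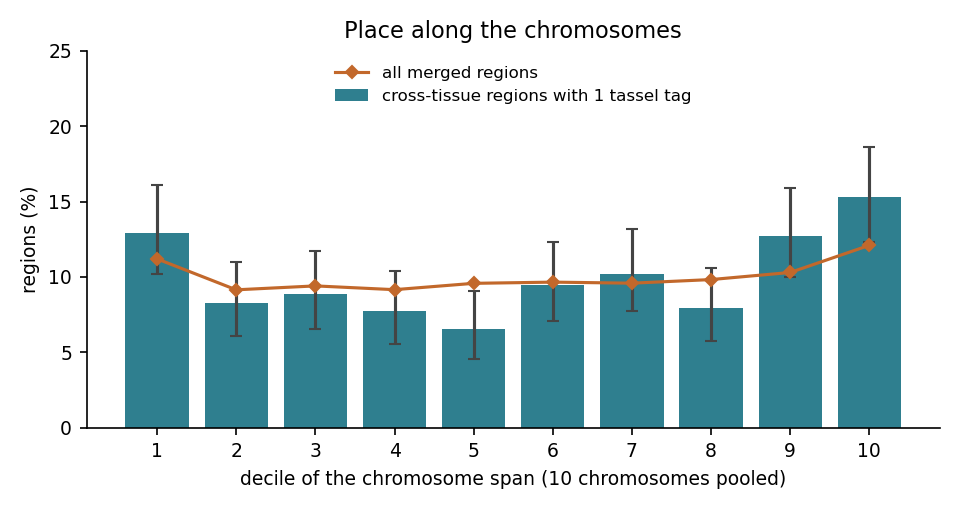
Percent of the 518 cross-tissue regions with 1 tassel tag (bars, with exact 95% intervals) and of all 25032 merged regions (diamonds) in each decile of the chromosome span, with the 10 chromosomes pooled. The last decile holds 15.3% of the cross-tissue regions against 12.1% of all regions, and the fifth holds 6.56% against 9.58%.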

How the data were processed

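The authors called peaks for each ChIP library; CASAVA and MACS 1.4.0rc2 were used, per the submitters' processing notes, with a limit of p = 1e-05 over input in the series text. How reads were aligned and filtered, and which input served each library, is not given in the sources used here. Each deposited score is read as a p-value on a scale of minus 10 times its log10, since none lies below 50. The deposited summit signal is the pileup height in whole fragments, unscaled. Total reads are unknown here, so no value is corrected for depth.

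Files were read as BED and 1 was added to each start. Peaks on the unplaced sequence and organelle genomes were left out. Merging, shifts and distances used pandas 2.3.3, numpy 2.4.6 and scipy 1.17.1 under Python 3.11.15, and plots used matplotlib 3.10.9. Per region and list the highest summit and score and the widest peak were taken, and distances are between the nearest tassel and ear summits. Intervals on shares are exact 95% (Clopper-Pearson) and those on medians are from binomial order statistics; both, and limits for a count of 0 (3 counts), cover counting error alone. Regions share their libraries and are not replicates, and with 1 library per combination no test between groups was possible. The merge and the rule were checked on simulated lists.

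In each of the 6 combinations the 3 regions with the best worst-list rank of score were named, and for each tassel tag the 2 widest and the 2 with the highest tassel summit, ties in height being broken by score. The regions, this rule and the measures were chosen with earlier results of these data known. Alternatives changed the score or height limit, the joining of peaks, the list lengths, the ear lists and the choice of summit.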

Additional observations from a re-analysis of the deposited data

How the results depend on the processing

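With 1 library per combination and no replicate numbers in the labels, no library could be left out as a replicate. No paired analysis was possible because each combination of tissue and tag has 1 library and the labels number no replicates. An overlap of at least 50 bp (503 regions) and the use of the highest summit of each list moved none of the summary values beyond their intervals or by over 1.5 times. With a score of at least 100, 112 regions met the rule (65 of the 518 and 47 others), 112 with tassel YFP and 0 with tassel HA (0% of 235 one-tag regions, which allows 1.28%; no distance could be given). The shifted mean was then 1, the tassel YFP share with an ear peak 7.98%, the outer share 42%, the YFP-tassel distance 9 bp, median heights 12 in ear HA, 14 in ear YFP and 15.5 in tassel YFP, and ear widths 370 (HA) and 415 bp (YFP). With windows of 100 bp on either side of each summit, HA-tassel regions fell to 24 (1.06% of one-tag regions) and the YFP share was 8.25%, with a shifted mean of 23.8. Distances, limited by the windows themselves, were 76 bp (HA) and 19 bp (YFP), the tassel YFP height 8, and ear widths 437 and 531 bp. With lists of equal length there were 274 regions, 35 with tassel HA (1.54%) and 239 with tassel YFP, a shifted mean of 14, a YFP-tassel distance of 18 bp, a tassel YFP height of 9 and an ear HA width of 432 bp. With summit heights of at least 5, 362 regions met the rule, 311 of them among the 518 and 51 not, and 8 had tassel HA. Tassel heights were 5 (HA) and 9 (YFP), the YFP share 23.2%, the YFP distance 14 bp, ear widths 437 and 536 bp and the shifted mean 18.5. Joining peaks up to 200 bp apart gave an HA-tassel distance of 388 bp and share of 4.04%. Without the ear HA list there were 263 regions (45 HA, 218 YFP), shares of 2% and 5.24%, a YFP distance of 127 bp and a tassel YFP height of 5. Without the ear YFP list there were 331 (27 HA), shares of 1.2% and 7.3%, a YFP distance of 20 bp, a tassel YFP height of 8 and a shifted mean of 19.1. In every alternative that left HA-tassel regions, their median distance exceeded that of the YFP-tassel regions. At heights of at least 5, however, the HA-tassel median of 338 bp rested on 8 regions. Its interval of 1 to 627 bp holds the YFP-tassel 14 bp. None of the alternatives matched tassel height between the tags. Of the 24 named regions, 7 still met the rule at a score of at least 100, 10 with summit windows and 13 at heights of at least 5. Low heights and unknown depth limit all comparisons between libraries.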

Other observations

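Outside chromosomes 1 to 10, none of the 90 merged regions met the same rule (63 on unplaced sequence, 19 on mitochondrial and 8 on plastid DNA). A count of 0 of 90 allows a share of up to 3.33%.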
